A study of Gallus gallus with 12 samples.

Results

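Of the 12 microglial libraries of the study, 6 came from chicks (Gallus gallus) that received lipopolysaccharide (LPS) into the brain, and these carry the comparison described here: early heat conditioning before LPS against LPS alone. The LPS Cond libraries (n = 3) came from birds held at 39°C for 24 h on day 3 after hatching and given LPS into the third ventricle on day 10. The LPS Non-Cond libraries (n = 3) came from birds with the same injection and no heat exposure. The Saline Cond and Saline Non-Cond libraries (n = 3 each) had the matching heat treatment or none, with saline in place of LPS, and serve here only to set the LPS result beside the injection control. All birds were taken on day 11, 24 h after the injection, and each library is 1 pool of microglia, taken by FACS out of the anterior hypothalami of 10 to 12 birds. The markers used for sorting are not named in the labels. Libraries were assigned by their titles, 3 pools against 3, and 0 libraries were left out.

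Microglia are the resident macrophages of the brain. LPS, a component of the outer membrane of Gram-negative bacteria, activates macrophages through Toll-like receptor 4 and drives the transcription of cytokine and chemokine genes. The anterior hypothalamus holds neurons that regulate body temperature, and heat exposure in the first days after hatching is used in chickens to alter later responses to heat. The question put by the design is whether birds conditioned a week earlier differ in their microglial transcriptome once LPS is given.

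The 3′ ends of mRNA were counted by bulk MARS-seq. Total counts were 468415, 504861 and 451683 in the LPS Cond libraries (replicates 1 to 3), against 317724, 615505 and 300739 in the LPS Non-Cond libraries. Between 8456 and 9499 of 11207 genes had a count in an LPS library, of whose counts the top 10 genes took 14.9% to 17.3%. A floor of 3 counts in a library was worth 4.88 to 10.0 CPM (counts scaled to a common library size), so genes near that level are measured poorly. Levels given below are CPM of 3′ counts, which do not scale with transcript length. The identifiers in the table could not be paired with gene symbols. Genes are therefore described by identifier or by their values, their functions are not given, and neither the microglial label nor other cell types in the sort could be checked against marker genes. In such pooled cells, fewer cells of a type and less RNA per cell cannot be told apart.

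The LPS Cond libraries resembled each other more than the LPS Non-Cond libraries did. Correlations of log2 CPM ran from 0.948 to 0.956 within LPS Cond and from 0.905 to 0.936 within LPS Non-Cond, and from 0.908 to 0.951 between the groups. The median standard deviation of a gene's log2 CPM was 0.241 in LPS Cond and 0.308 in LPS Non-Cond. In a principal component analysis of the 6 libraries, the first component held 31.9% of the variance and placed LPS Cond at -8.08, -9.53 and -12.3, against 32.9, 0.404 and -3.38 in LPS Non-Cond. Replicate 1 of LPS Non-Cond stood apart on that component. The second component, with 25.2%, set replicate 3 of LPS Non-Cond apart at -29.3, against -1.21 to 10.4 in the other LPS libraries. Both of these libraries had a smaller total than any other LPS library. Some results below are therefore given with and without 1 of them.

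Of 5170 genes tested, 0 (0%) passed an adjusted p under 0.05 for conditioning with LPS in edgeR's quasi-likelihood test over all 12 libraries, and the smallest adjusted p was 0.157. At an unadjusted p under 0.05, 122 genes (2.36%) were higher in LPS Cond and 218 (4.22%) were lower. One gene, lower in LPS Cond, was called by DESeq2 and by limma on quantile-normalized values (0.0193% of genes in each), and limma with library weights called 0. The same test on the 6 LPS libraries alone called 13 of 4639 genes (0.28%), all of them lower in LPS Cond. The median 95% interval of a gene reached 0.645 on the log2 scale to either side of its difference at this depth and number of pools. For a gene with that interval, a smaller estimate misses an unadjusted edgeR p under 0.05. A larger one can still miss the adjusted threshold.

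The weight of the small p-values lay on the lower side. An unadjusted p under 0.01 was found for 18 higher and 72 lower genes, and a p under 0.001 for 0 higher and 19 lower genes. The median log2 difference over all 5170 genes was 0.00365, a value that the scaling between libraries holds near 0 by design. A difference of more than 1 on the log2 scale was estimated for 35 genes above and 120 genes below 0. The 3 LPS Cond values lay above all 3 LPS Non-Cond values for 343 genes (6.63%) and below them for 370 genes (7.16%). With 3 pools a group, genes that do not differ can also separate in this way or reach an unadjusted edgeR p under 0.05. The plot of each gene's difference and p shows the lopsided tail of small p-values.

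**Figure D1:**
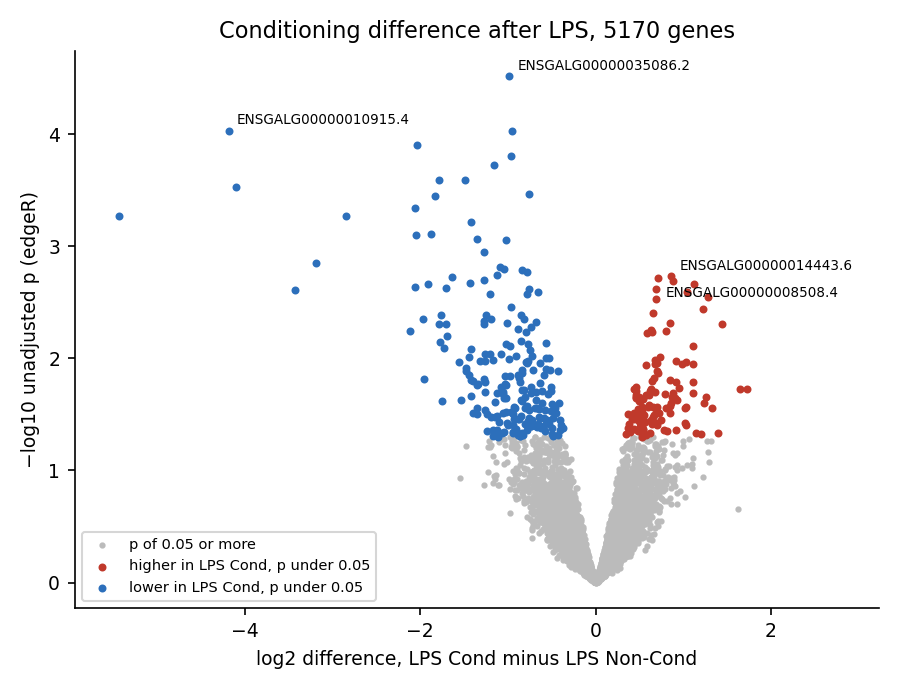
Log2 difference, LPS Cond minus LPS Non-Cond (x axis), and −log10 of the unadjusted edgeR p (y axis) for 5170 genes, with the 122 genes higher and the 218 genes lower in LPS Cond at p under 0.05 coloured. The 4 labelled genes are those named in the text, and the points with the smallest p lie on the side lower in LPS Cond.

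Among genes whose groups did not overlap, ENSGALG00000035086.2 had the smallest p. Its level was 386, 315 and 340 CPM in LPS Cond libraries, against 885, 595 and 588 CPM in LPS Non-Cond libraries. Every conditioned pool lay below every non-conditioned pool, and replicate 1 of LPS Non-Cond was the highest. The means were 347 ± 36.0 CPM in LPS Cond and 690 ± 170 CPM in LPS Non-Cond (SD, n = 3 each). The log2 difference was -0.99 ± 0.19 (SE; 95% interval -1.38 to -0.59), with an edgeR p of 3.04e-05 and an adjusted p of 0.157. It was called in 7 of 22 alternatives, with adjusted p between 0.000451 and 0.569 over all of them. DESeq2 gave an adjusted p of 0.00539. Without replicate 1 of LPS Non-Cond edgeR gave 0.569, at a log2 difference of -0.78. Leaving out replicate 1, 2 or 3 of LPS Cond had a like effect, with edgeR adjusted p of 0.465, 0.506 and 0.534. Without replicate 2 or 3 of LPS Non-Cond it was 0.0658 and 0.0326.

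The same gene was also lower with conditioning in birds given saline. It measured 524, 616 and 519 CPM in Saline Cond libraries, against 680, 986 and 888 CPM in Saline Non-Cond libraries, and these groups did not overlap either. The saline log2 difference was -0.62 ± 0.19 (SE; 95% interval -1.01 to -0.24), with an edgeR p of 0.00279 and an adjusted p of 0.92. The difference of the LPS and saline differences was -0.36 (95% interval -0.91 to 0.18), with an edgeR adjusted p of 0.791, so the data did not separate the sizes of the differences. In a comparison added after seeing the data, conditioning was averaged over both injections. There this gene was the only one of 5170 that edgeR called (0.0193%), at a log2 difference of -0.80 ± 0.13 (SE) and an adjusted p of 0.0207. That call was lost when any of 8 of the 12 libraries was left out, with adjusted p of 0.0531 to 0.191 in those fits.

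Second by p among separated genes with lower levels was ENSGALG00000010915.4, and here 1 library set the size. Its level was 8.78, 16.6 and 6.80 CPM in LPS Cond libraries, against 564, 50.4 and 20.1 CPM in LPS Non-Cond libraries. The underlying counts were 4, 8 and 3 in LPS Cond and 172, 31 and 6 in LPS Non-Cond. Replicate 1 of LPS Non-Cond was more than 10 times above the next library, while replicate 3 lay close to the highest LPS Cond library. The log2 difference was -4.18 ± 0.88 (SE; 95% interval -6.00 to -2.36), with an edgeR adjusted p of 0.162. Without replicate 1 of LPS Non-Cond it was -1.78, with an edgeR adjusted p of 0.89. Without replicate 3 of that group it was -4.7, with an edgeR adjusted p of 0.00587. Saline libraries held 31.1, 0 and 25.8 CPM in Saline Cond, against 3.05, 5.48 and 6.69 CPM in Saline Non-Cond, all of them at few counts. The LPS difference was called in 4 of 20 alternatives, 3 of them fits without a library of a non-conditioned group.

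On the higher side, ENSGALG00000014443.6 had the smallest p among separated genes. Its level was 134, 108 and 127 CPM in LPS Cond libraries, against 52.5, 73.2 and 73.5 CPM in LPS Non-Cond libraries. All 3 conditioned pools lay above all 3 non-conditioned pools, with a mean of 123 ± 13.4 CPM in LPS Cond and 66.4 ± 12.1 CPM in LPS Non-Cond (SD, n = 3 each). The log2 difference was 0.86 ± 0.24 (SE; 95% interval 0.36 to 1.37), with an edgeR adjusted p of 0.32. After saline the levels overlapped, at 80.6, 88.7 and 93.7 CPM in Saline Cond and 88.4, 49.3 and 116 CPM in Saline Non-Cond, and the log2 difference there was -0.04 (95% interval -0.55 to 0.48). The difference between the injections was 0.90 (95% interval 0.18 to 1.62), with an edgeR adjusted p of 0.565. None of 22 alternatives called the gene, and its log2 difference stayed between 0.73 and 0.96.

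The next, ENSGALG00000008508.4, differed in opposite directions after LPS and after saline. Its level was 259, 290 and 197 CPM in LPS Cond libraries, against 102, 172 and 177 CPM in LPS Non-Cond libraries. After saline it was 194, 198 and 173 CPM in Saline Cond, against 232, 235 and 254 CPM in Saline Non-Cond. Neither pair of groups overlapped: the conditioned pools were the higher ones after LPS and the lower ones after saline. The log2 difference was 0.71 ± 0.20 (SE; 95% interval 0.29 to 1.13) after LPS, with an edgeR adjusted p of 0.32, and -0.37 (95% interval -0.79 to 0.05) after saline. The difference between the injections was 1.08 (95% interval 0.49 to 1.67), with an unadjusted edgeR p of 0.00103 and an adjusted p of 0.386. No alternative among 22 called the difference after LPS.

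**Figure D2:**
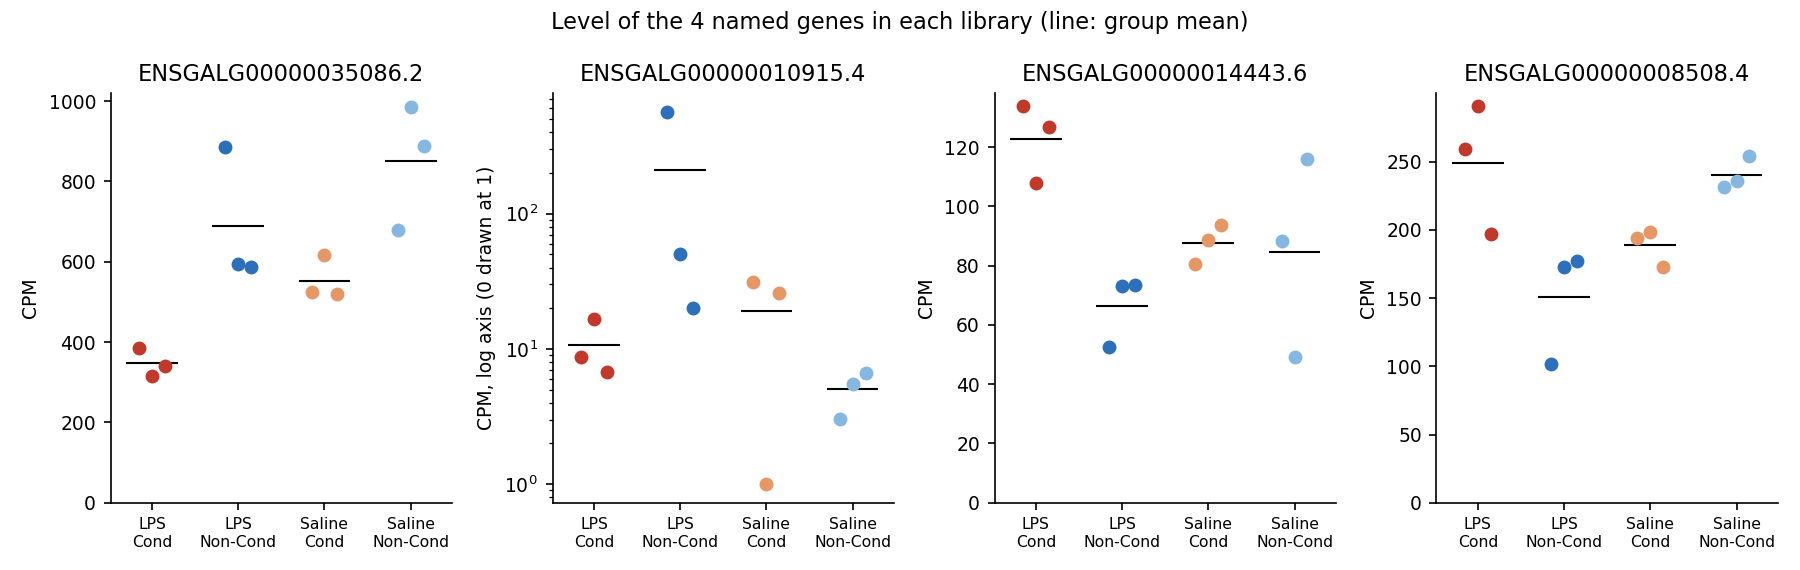
Level in CPM (y axis, from 0 except for ENSGALG00000010915.4, which has a log axis) of the 4 named genes in each library (points), by group (x axis), with the group mean as a line. Conditioned LPS libraries lie below the non-conditioned ones for the first pair of genes and above them for the other pair, and for ENSGALG00000010915.4 a single LPS Non-Cond library at 564 CPM stands far above the rest.

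The 10 separated genes with the smallest p on each side, these 4 among them, show how the sides differ in size. The 10 lower genes had log2 differences of -4.18 to -0.75, unadjusted p of 3.04e-05 to 0.000344 and adjusted p of 0.157 to 0.166 in edgeR. The 10 higher genes had log2 differences of 0.66 to 1.28, unadjusted p of 0.00185 to 0.00392 and adjusted p of 0.32 to 0.416. The largest p of the lower list was thus smaller than the smallest p of the higher list.

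Some of these genes were tight in one group or in both. One gene of the lower list measured 219, 220 and 222 CPM in LPS Cond libraries, against 518, 397 and 384 CPM in LPS Non-Cond libraries, a log2 difference of -0.97. Another measured 39.5, 62.2 and 49.8 CPM in LPS Cond libraries, against 111, 115 and 114 CPM in LPS Non-Cond libraries. For this one the LPS Non-Cond pools stood alone: Saline Cond held 38.5, 42.2 and 63.9 CPM and Saline Non-Cond held 64.0, 54.8 and 40.2 CPM. Yet another lower gene measured 59.2, 53.9 and 47.6 CPM in LPS Cond libraries, against 210, 127 and 124 CPM in LPS Non-Cond libraries.

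Higher levels with conditioning were found among more abundant transcripts as well. One gene of the higher list measured 5093, 3827 and 3013 CPM in LPS Cond libraries, against 1017, 2893 and 1875 CPM in LPS Non-Cond libraries, a log2 difference of 1.04 at an unadjusted edgeR p of 0.00258. A second measured 1086, 832 and 1042 CPM in LPS Cond libraries, against 295, 681 and 351 CPM in LPS Non-Cond libraries. In both, the lowest library was replicate 1 of LPS Non-Cond. A further gene measured 206, 131 and 159 CPM in LPS Cond libraries, against 111, 114 and 83.6 CPM in LPS Non-Cond libraries, and after saline 89.7, 106 and 89.6 CPM in Saline Cond, against 146, 170 and 147 CPM in Saline Non-Cond. Like ENSGALG00000008508.4 it was higher with conditioning after LPS and lower with conditioning after saline, without overlap in either. Its difference between the injections was 1.37 at an unadjusted edgeR p of 0.000126 and did not pass adjustment.

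Fitted on the 6 LPS libraries alone, the spread between pools was smaller, with a biological coefficient of variation of 0.148 against 0.176 over all 12 libraries. The 13 genes called there had log2 differences of -5.44 to -0.86 (median -1.17) in that fit, with edgeR adjusted p of 0.00949 to 0.0492. Their edgeR adjusted p over all 12 libraries ran from 0.157 to 0.503. For all 13, each conditioned pool lay below each non-conditioned pool, against 7.16% of the 5170 genes tested over all libraries. The 13 were chosen on these same libraries, so this order adds no support. Replicate 1 of LPS Non-Cond was the highest library of its group in 9 of the 13, replicate 2 in 4 and replicate 3 in 0. Over the 5170 genes, replicate 1 was the highest in 36.9%. Leaving out replicate 1, 2 or 3 of LPS Cond reduced the 13 calls to 0, 1 and 0. Leaving out replicate 1, 2 or 3 of LPS Non-Cond gave 15, 16 and 30 calls, of which 15, 13 and 29 were lower in LPS Cond. In the same order, these calls held 11, 7 and 11 of the 13 genes.

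The largest difference of any gene belonged to the first of these 13 and was looked at because of its size. It measured 43.9, 49.8 and 36.2 CPM in LPS Cond libraries, against 4538, 301 and 906 CPM in LPS Non-Cond libraries, a log2 difference of -5.44 ± 1.34 (SE) with an edgeR adjusted p of 0.201 over all libraries and 0.00949 over the 6. The level in saline libraries was as uneven, at 134, 266 and 610 CPM in Saline Cond, against 42.7, 5913 and 35.7 CPM in Saline Non-Cond. The 3 LPS Cond pools were alike, whereas 1 library in each non-conditioned group was far above its replicates. A further gene of the 13 was at or under the floor in every LPS Cond library, with 0, 3 and 2 counts, against 35, 16 and 22 counts in LPS Non-Cond libraries.

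**Figure D3:**
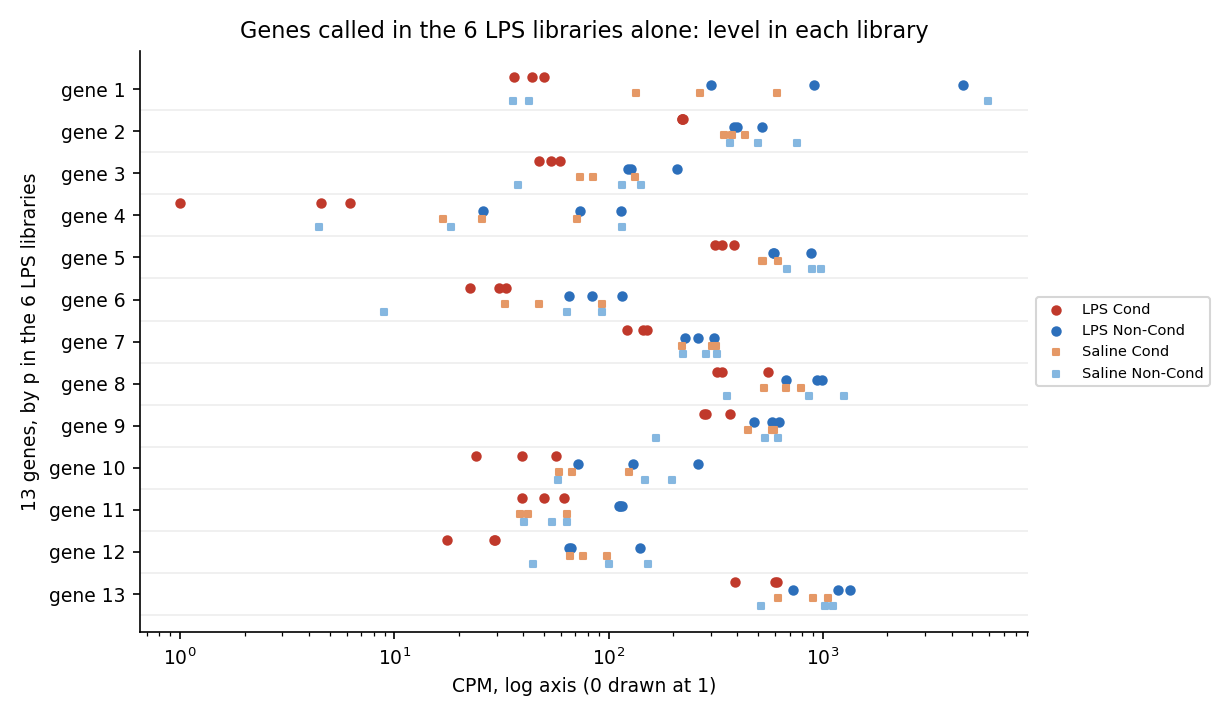
Level in CPM (x axis, log scale, 0 drawn at 1) of the 13 genes called in the 6 LPS libraries alone (y axis, ordered by p in that fit), with 1 point per library and colours for the 4 groups. In every row the 3 LPS Cond points lie left of the 3 LPS Non-Cond points, an order that the Saline Cond and Saline Non-Cond points repeat in 1 row.

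Set beside the saline result, most genes lower after LPS were not lower after saline. Conditioning with saline called 0 genes in edgeR, with a smallest adjusted p of 0.92, and DESeq2 and limma called 0 as well. With an unadjusted edgeR p under 0.05, 116 genes (2.24%) were higher and 140 (2.71%) lower in Saline Cond. Lower levels without overlap numbered 260 genes (5.03%) after saline. Of the 218 genes lower after LPS, 91 were lower after saline and 127 were higher, which is 41.7% lower against 52.1% of all genes tested. Their median log2 difference was -0.94 after LPS and 0.11 after saline. In saline libraries 7 of the 218 were lower and 14 were higher at an unadjusted p under 0.05.

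For the 122 genes higher after LPS the pattern was alike with the sign turned. After saline 41 of them were higher and 81 were lower, which is 33.6% higher against 47.9% of all genes tested. Their median log2 difference was 0.66 after LPS and -0.10 after saline. At an unadjusted edgeR p under 0.05, 0 were higher and 6 were lower after saline, against 2.24% and 2.71% of all genes tested. The 19 genes lower after LPS at p under 0.001 had a median of -1.78 after LPS. Of these, 10 (52.6%) were also lower after saline, against 52.1% of all genes tested. Of the 13 genes called in the 6 LPS libraries, 8 were lower after saline, against 52.1% of all genes tested. Their median after saline was -0.036. At an unadjusted edgeR p under 0.05, 3 of the 13 were lower after saline, against 2.71% of all genes tested. These counts describe genes chosen by their LPS values. In the fit over all libraries, saline values entered that choice only through the low-count filter, the shared estimate of spread and the scaling.

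**Figure D4:**
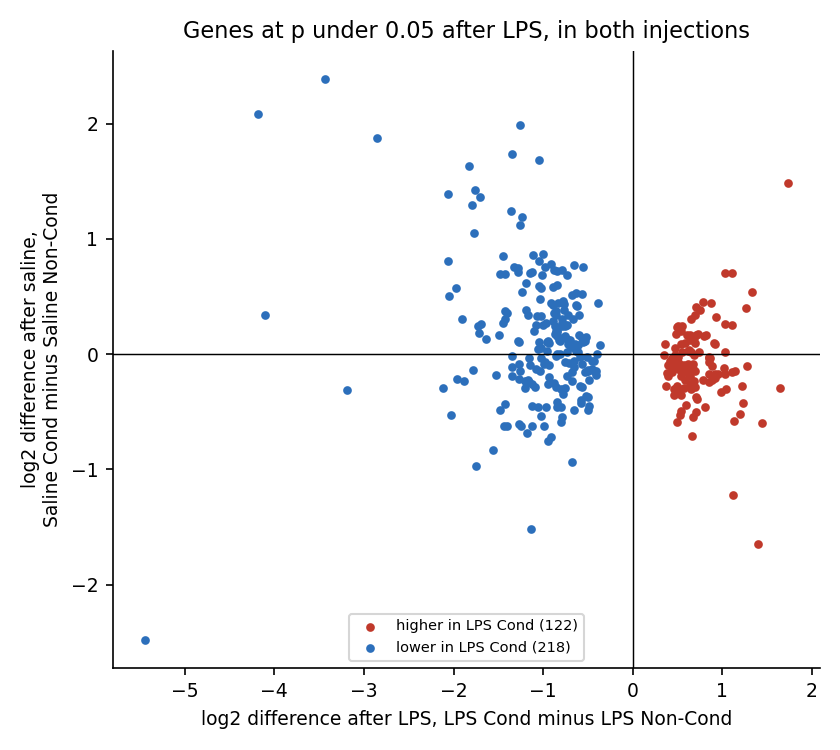
Log2 difference between conditioned and non-conditioned pools after LPS (x axis) and after saline (y axis) for the 122 genes higher and the 218 genes lower after LPS at an unadjusted p under 0.05. Both colours straddle 0 on the saline axis, with medians of -0.10 and 0.11.

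Tested directly, the conditioning difference was not shown to depend on the injection for any single gene. The interaction of both treatments called 0 of 5170 genes in edgeR, with a smallest adjusted p of 0.172, and 0 in DESeq2 and limma. At an unadjusted p under 0.05, the difference after LPS lay above that after saline for 163 genes (3.15%) and below it for 209 (4.04%). The interval of an interaction was wider than that of either part, reaching 0.929 (median, log2 scale) to either side. A p that misses the threshold does not show that the injections gave the same difference.

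Replicate 1 of LPS Non-Cond was often the most extreme library of its group among the genes at an unadjusted edgeR p under 0.05. It was the highest of its group in 125 of the 218 lower genes (57.3%), against 36.9% of all genes tested, and the lowest of its group in 67 of the 122 higher genes (54.9%), against 35.3% of all genes tested. Without it, 116 genes were higher and 170 were lower in LPS Cond at an unadjusted p under 0.05, and 1 gene passed adjustment in edgeR, lower in LPS Cond. Leaving out any other single library gave between 90 and 165 higher and between 173 and 291 lower genes at that p. The 173 came without replicate 3 of LPS Cond, where 107 genes were higher. The lower side was the larger in every alternative tried. What part the state of this pool has in the difference was not tested.

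The differences were spread over the range of abundance. Divided by mean level into equal classes, the least abundant (15.8 to 40.8 CPM) held 27 higher and 68 lower genes at an unadjusted p under 0.05, the middle class (40.8 to 96.3 CPM) held 37 and 77, and the most abundant (96.4 to 32800 CPM) held 58 and 73. Precision differed more than the counts did: the median half-width of the 95% interval was 0.96, 0.637 and 0.422 on the log2 scale in the same order. Differences of more than 1 in size numbered 107, 32 and 16. Low genes thus supplied most of the large estimates, and they were also the least precisely measured.

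The 10 most abundant transcripts differed by less than 1 on the log2 scale, as did most genes tested. The top 10 genes held about 16% of the counts of the LPS libraries, and their log2 differences ran from -0.22 to 0.62. Of the 10, 1 had an unadjusted edgeR p under 0.05, against 2.36% higher and 4.22% lower of all genes tested. The most abundant gene measured 46921, 40185 and 45384 CPM in LPS Cond libraries, against 26512, 39012 and 44316 CPM in LPS Non-Cond libraries. Its groups overlapped, and the lowest of these LPS values was again that of replicate 1 of LPS Non-Cond. One of the 10 did not overlap, with 18769, 19385 and 18281 CPM in LPS Cond libraries, against 11926, 16057 and 17063 CPM in LPS Non-Cond libraries. Over all genes tested, 6.63% were higher and 7.16% lower without overlap.

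At the other end of the scale, absence of counts was found in both directions. No count in LPS Cond but at least 1 in LPS Non-Cond was found for 545 genes, and the reverse for 437 genes, with summed totals of 1424959 counts in LPS Cond and 1233968 in LPS Non-Cond. Genes without a count in LPS Cond and with one in each LPS Non-Cond library numbered 34, and none of these reached more than 15 counts in the 3 libraries together. The reverse held for 33 genes, with at most 8 counts. No gene without a count in one LPS group was thus seen at a high level in every library of the other.

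Among genes that responded to LPS itself, the share lower with conditioning was not far from that of all genes tested in the main fit. The split depended on the libraries used. LPS, averaged over both conditioning states with the 2 LPS groups weighted equally, changed 38 of 5170 genes (0.735%) at an edgeR adjusted p under 0.05, of which 28 rose and 10 fell. This list uses the same LPS libraries. Its equal weights leave the direction of the conditioning difference free only where groups have equal spread. The median standard deviation of log2 CPM was 0.241 in LPS Cond and 0.308 in LPS Non-Cond. It was 0.263 in Saline Cond and 0.371 in Saline Non-Cond. The choice can thus lean on the more variable non-conditioned groups, and its effect on the splits was not tested. Of the 28 genes raised by LPS, 12 were higher and 16 were lower in LPS Cond than in LPS Non-Cond, which is 57.1% lower against 49.5% of all genes tested. Their median log2 difference was -0.08 (range -1.02 to 0.34), against 0.00365 over all genes, and 24 of the 28 (85.7%) lay within 0.5 of 0, against 81.6% of all genes. At an unadjusted edgeR p under 0.05, 0 were higher and 3 were lower, against 2.36% higher and 4.22% lower of all genes tested.

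Over the whole list of 38, 16 genes were higher and 22 were lower in LPS Cond. Both the list and the split moved when a library was left out. There were 3 higher and 16 lower genes without replicate 1 of LPS Cond, 6 higher and 18 lower without replicate 2, and 8 higher and 19 lower without replicate 3. Without replicate 3 of LPS Non-Cond the split was 10 higher and 30 lower, and without replicate 1 of that group it was 29 higher and 40 lower. Omitting a saline library gave 7 higher and 20 lower without replicate 2 of Saline Cond, 6 and 16 without replicate 2 of Saline Non-Cond, and 15 and 18 without replicate 3 of Saline Cond. Lower genes were the more numerous in each of the 21 alternatives. The alternatives reuse the same libraries, and shares over all genes were not taken in them.

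The gene raised by LPS with the largest conditioning difference measured 83.4, 58.1 and 77.0 CPM in LPS Cond libraries. In LPS Non-Cond libraries it measured 207, 166 and 63.5 CPM. Without LPS it was at 31.1, 21.1 and 46.4 CPM in Saline Cond, against 27.4, 5.48 and 26.8 CPM in Saline Non-Cond. Replicates 1 and 2 of LPS Non-Cond carried the higher level, while replicate 3 lay among the conditioned pools. The log2 difference after LPS was -1.02 ± 0.32 (SE), with an edgeR adjusted p of 0.416. Another gene raised by LPS measured 467, 421 and 424 CPM in LPS Cond libraries, against 767, 742 and 431 CPM in LPS Non-Cond libraries. After saline it measured 253, 220 and 234 CPM in Saline Cond, against 192, 120 and 170 CPM in Saline Non-Cond, without overlap. Its level was thus lower with conditioning after LPS (log2 difference -0.57) and higher with conditioning after saline (0.52), a difference between the injections of -1.09 at an unadjusted edgeR p of 0.00115 that did not pass adjustment.

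Over the 28 raised genes, 22 were higher and 6 were lower in Saline Cond than in Saline Non-Cond, which is 78.6% higher against 47.9% of all genes tested, with a median log2 difference of 0.16. The interaction lay below 0 for 22 of them (78.6%, against 48.7% of all genes) and above 0 for 6, with a median of -0.16. At an unadjusted edgeR p under 0.05, 5 were below 0 (17.9%, against 4.04% of all genes), and 0 passed adjustment. Saline and LPS libraries both entered the choice of these genes, and the groups differed in spread, so the counts are descriptions. Among the 10 genes lowered by LPS, 4 were higher and 6 (60%) were lower in LPS Cond, against 49.5% lower of all genes tested. Their median log2 difference after LPS was -0.22 (range -1.55 to 0.85). After saline 2 of the 10 (20%) were higher, against 47.9% of all genes, and 8 were lower, with a median of -0.37. The interaction lay above 0 for 5 and below 0 for 5, with a median of 0.135. One of them measured 13.2, 22.8 and 27.2 CPM in LPS Cond libraries, against 39.3, 37.4 and 33.4 CPM in LPS Non-Cond libraries, from 6 to 23 counts a library. After saline this gene was also lower without overlap, at 47.6, 54.9 and 50.5 CPM in Saline Cond, against 67.1, 65.7 and 73.6 CPM in Saline Non-Cond. Its difference between the injections was -0.34, with an edgeR adjusted p of 0.912.

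**Figure D5:**
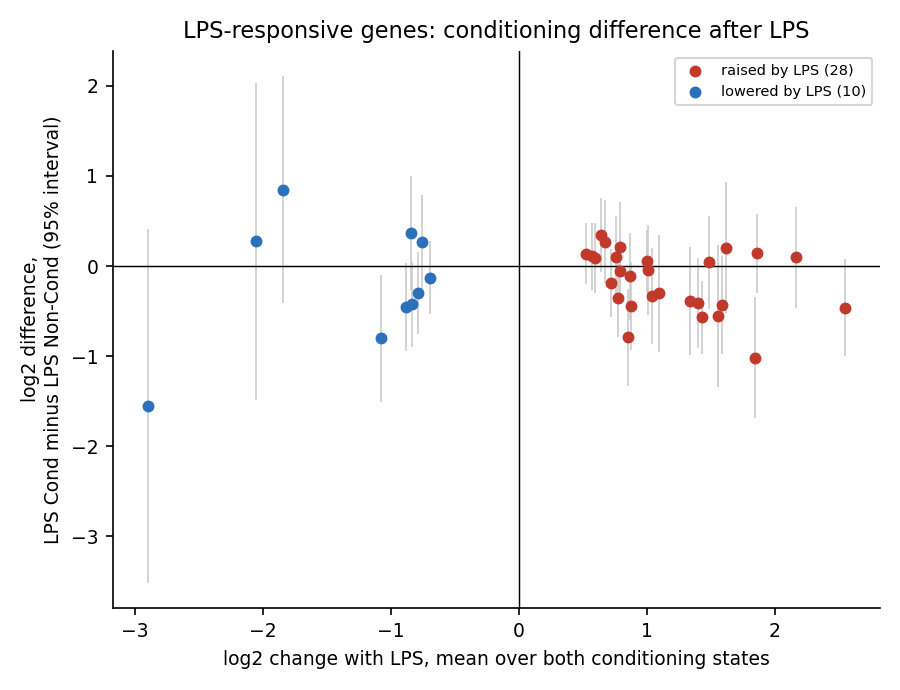
Log2 change with LPS averaged over both conditioning states (x axis) and log2 difference, LPS Cond minus LPS Non-Cond, with its 95% interval as a vertical line (y axis), for the 28 genes raised and the 10 genes lowered by LPS. Points lie on both sides of 0 on the y axis, with 24 of the 28 raised genes within 0.5 of it (85.7%, against 81.6% of all genes tested).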

How the data were processed

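The authors deposited raw counts of 11207 genes for the 12 libraries, per the file headers. A normalized signal deposited by the authors in the same table equals the raw count times 1 factor per library (1.13 to 6.25, how set is not stated) and was used only as an alternative scaling. Cutadapt, STAR, HTSeq, DESeq2 and the galGal5 build are named in the submitters' processing notes. Versions, annotation, strand setting and any use of molecular identifiers were not given in the sources used here. It is thus not known whether a count is a read or a molecule, and counts are uncertain for genes with near-identical copies, overlaps or antisense partners. The labels' protocols state 15 ng of RNA, single reads of 100 bp and about 25 M reads per sample, of which counts of the LPS libraries are 1.20% to 2.46%. Replicates are separate pools per the labels. Replicate counts differed by more than sampling noise (chi-square per degree of freedom of 1.83 or more in each pair), and none was treated as a duplicate.

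Genes were kept by filterByExpr with a minimum count of 10, which left 5170, and scaled by TMM. CPM are counts divided by the scaled library size. All 12 libraries entered 1 edgeR 4.0.16 quasi-likelihood fit in R 4.3.3 with 1 mean per group and 2-sided tests, so the groups share an estimate of spread, and p-values were adjusted by Benjamini-Hochberg over all genes tested. Log2 values shown in correlations and components used a prior count of 2. Intervals of log2 differences have a confidence level of 95%, and floors reflect counting error alone. DESeq2 1.42.0, limma 3.58.1, other filters and scalings, a replicate block and the omission of each library were tried as alternatives.

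Of 11207 Ensembl identifiers, 0 could be matched to a symbol through the RefSeq list used (assembly GRCg7b), so 21 planned gene and marker lists were not applied. Named genes had a mean of at least 20 CPM over the 6 LPS libraries, no overlap between LPS Cond and LPS Non-Cond, and the smallest p on each side, 2 per side. Groups, lists and the naming rule were chosen with earlier results of these data known. Other genes whose values are given were picked after their values were seen.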

Additional observations from a re-analysis of the deposited data

How the results depend on the processing

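The 0 calls for conditioning with LPS became 1 with DESeq2, 1 with limma on quantile-normalized values, 64 without a filter on low counts (9 higher, 55 lower in LPS Cond) and 13 on the 6 LPS libraries alone. Leaving out 1 library at a time gave 0 to 16 calls, all lower in LPS Cond: 16 without replicate 3 and 4 without replicate 2 of Saline Non-Cond, and 1, 1 and 5 without replicate 1, 2 or 3 of LPS Non-Cond. The cause of these shifts was not tested. For conditioning with saline, 8 genes were called without a filter and 0 whichever library was left out. The interaction gave 35 calls without a filter and 0 to 5 with a library left out. The 38 genes called for LPS over both states became 69 with library weights, 109 without a filter and 80 at an adjusted p under 0.1, and 19 to 78 with a library left out (69 without replicate 1 of LPS Non-Cond, 78 without replicate 1 of Saline Non-Cond). For the 4 named genes, 75 of 86 alternative values kept direction and stayed uncalled, 11 passed the threshold and 0 reversed.

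With the replicate number as a block, conditioning with LPS called 2 genes, both lower, and the interaction 0. Deviations of LPS Cond and LPS Non-Cond libraries with the same number correlated at 0.007, -0.005 and 0.024. Whether libraries of the same number share a preparation was not tested. With 3 pools a group and at most 615505 counts in an LPS library, the intervals given were wide. A gene that was not called can still differ with conditioning.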
